A study of Rattus norvegicus with 70 samples.

Results

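Chemokines, interleukins and their receptors were followed at the start of each gene as captured methylated DNA in rat liver. The members are all rows of the deposited region tables whose gene symbol begins with Ccl, Cxcl, Ccr, Cxcr or Il followed by a digit, leaving out Il6r and Il6st. They come to 123 regions of 119 genes, among 17174 regions of 16561 gene symbols. By name they fall into 20 CC ligand, 10 CC receptor, 14 CXC ligand, 6 CXC receptor, 35 interleukin ligand and 38 interleukin receptor regions. The interleukin receptor class includes accessory and decoy chains, and it includes Il8ra, a chemokine receptor now named Cxcr1.

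Livers came from Crj:CD(SD)IGS rats in a 2-stage model of hepatocarcinogenesis. In the initiation stage 5 groups received 1 of 4 compounds for 1 to 2 weeks: acetaminophen (1000 mg/kg), methapyrilene (100 mg/kg), thioacetamide (45 mg/kg) or diethylnitrosamine, DEN (30 mg/kg or 3 mg/kg). DEN and the other compounds are classical liver toxicants, and the 30 mg/kg DEN dosing was held to 1 week because the animals lost weight. After 2 weeks without compound these groups drank water with 500 ppm phenobarbital, a promoter of liver tumours. The promoted control received 0.5% methylcellulose in place of a compound, then phenobarbital. The water control received 0.5% methylcellulose, then plain water. All animals, controls included, had a partial hepatectomy after 1 week of the promotion stage, and terminal euthanasia followed after 6 weeks. Each of the 7 conditions has 5 libraries at each of the 2 times, 70 libraries in 14 groups. Livers at terminal euthanasia had therefore regrown after surgery, and nothing in the labels tells hepatocytes from the other cells of the organ. The labels do not say whether libraries with the same number at both times came from the same animal, so the p-values measure the spread between libraries.

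Chemokines are small secreted proteins that draw leukocytes along a gradient by way of G protein-coupled receptors. The CC and CXC classes are named for the spacing of their first conserved cysteines. Interleukins signal through receptor chains that are often shared between several ligands, most of them through JAK and STAT proteins, and the interleukin-1 and interleukin-17 families through adaptor proteins. In liver, resident macrophages, stellate cells, endothelium and hepatocytes all take part in this traffic after injury and during regeneration. Methylated CpG at a gene's start often goes with silence of that gene in the tissue, but the values below are captured methylated DNA and not expression.

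Fragments were enriched with a methyl-CpG binding domain protein (MethylMiner) and sequenced as 50-base reads. The deposited signal of a region is its number of reads times 1 factor per library, over a window of 5625 bp at the transcript start. Since every window has the same width, levels can be set beside each other per length. The signal rises with the number of methylated CpG in the window and is not a methylation percentage. The scaling totals implied by the step between values were 42.1 to 56.6 M reads per library, and 0.933 to 1.796 M reads per library fell in the regions. Between 0.611 and 5.39% of regions had no read, and 9 of the 70 libraries lay under 1%, called weakly enriched here because methylated regions then stand out least from the rest. They are, at terminal euthanasia, replicate 3 of the DEN 30 mg/kg, methapyrilene and acetaminophen groups, replicate 4 of the thioacetamide group and replicate 5 of the promoted control. At partial hepatectomy they are replicates 3 and 4 of the DEN 30 mg/kg group, replicate 5 of the acetaminophen group and replicate 5 of the water control. In whole-liver DNA a change in which cells are present and a change of methylation within a cell cannot be told apart.

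The promoter sequences of 5 genes show the range of CpG content behind these levels. Each runs from 250 bases before to 50 bases after the RefSeq transcript start in the GRCr8 build, with every CG in capitals. Ccr6, the receptor of Ccl20 on T and B lymphocytes, had the highest level of the members, and Ccr1, a receptor of Ccl3 and Ccl5, the second lowest. Il4ra, RefSeq symbol Il4r, is the interleukin-4 receptor alpha chain and had the smallest p-value of the members in any treatment contrast. Ccl21, a Ccr7 ligand that guides T cells to lymphoid tissue, had the largest F value for library number, and Il1rap, the accessory chain of the interleukin-1 receptor, the smallest p-value for time.
Ccr6: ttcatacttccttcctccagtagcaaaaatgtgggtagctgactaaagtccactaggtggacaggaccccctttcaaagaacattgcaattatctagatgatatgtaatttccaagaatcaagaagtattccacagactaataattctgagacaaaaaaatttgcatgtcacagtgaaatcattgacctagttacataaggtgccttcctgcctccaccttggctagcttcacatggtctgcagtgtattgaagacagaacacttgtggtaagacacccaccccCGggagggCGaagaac
Ccr1: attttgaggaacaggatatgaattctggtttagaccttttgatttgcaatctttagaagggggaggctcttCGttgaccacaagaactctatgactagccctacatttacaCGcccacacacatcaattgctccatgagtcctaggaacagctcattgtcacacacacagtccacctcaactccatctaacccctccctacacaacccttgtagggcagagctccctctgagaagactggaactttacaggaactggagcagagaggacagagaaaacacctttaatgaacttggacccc
Il4ra: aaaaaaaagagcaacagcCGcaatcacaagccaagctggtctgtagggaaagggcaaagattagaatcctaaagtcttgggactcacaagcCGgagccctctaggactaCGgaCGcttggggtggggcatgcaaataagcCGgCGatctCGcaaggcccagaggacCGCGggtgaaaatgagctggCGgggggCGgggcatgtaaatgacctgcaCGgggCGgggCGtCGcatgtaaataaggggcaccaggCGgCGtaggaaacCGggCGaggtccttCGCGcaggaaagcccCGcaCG
Ccl21: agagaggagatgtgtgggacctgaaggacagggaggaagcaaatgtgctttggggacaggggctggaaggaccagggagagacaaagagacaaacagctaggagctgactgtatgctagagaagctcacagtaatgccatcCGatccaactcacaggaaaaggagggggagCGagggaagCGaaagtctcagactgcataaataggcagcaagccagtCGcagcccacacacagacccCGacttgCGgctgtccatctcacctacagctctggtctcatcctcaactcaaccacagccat
Il1rap: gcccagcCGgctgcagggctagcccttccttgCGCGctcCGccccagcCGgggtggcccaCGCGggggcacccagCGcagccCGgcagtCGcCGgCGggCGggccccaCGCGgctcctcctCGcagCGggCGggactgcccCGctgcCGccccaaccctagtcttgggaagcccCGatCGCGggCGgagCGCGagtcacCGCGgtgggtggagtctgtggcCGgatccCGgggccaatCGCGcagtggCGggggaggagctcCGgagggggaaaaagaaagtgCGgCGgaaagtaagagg
In GRCr8 these stretches lie at chr1:55046079-55046378 on the minus strand for Ccr6, chr8:132439217-132439516 minus for Ccr1, chr1:189545525-189545824 plus for Il4ra, chr5:61777466-61777765 minus for Ccl21 and chr11:87704293-87704592 minus for Il1rap. The Ccr6 and Ccr1 stretches each hold 2 CG, and their windows had mean signals of 409 and 1.01 over the 70 libraries. Ccl21 has 6 CG beside a signal of 132, Il4ra 23 CG beside 10.6, and Il1rap 36 CG beside 86.2. Few or many CG in these 300 bases therefore stood beside both high and low signal in the 5625 bp window, most of which lies outside the printed stretch.

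Promoters could be matched for 92 member genes and for 12848 genes of the tables. The motif searched was CG, which reads the same on both strands. At least 1 CG was found in 98.9% of the member promoters, 95.9% of those of all table genes and 94.8% of all 27457 promoters of the RefSeq table. The median was 5 CG in members, 16 in all genes of the tables and 7 in all promoters of the RefSeq table. At most 5 CG were found in 50 of 92 member promoters, or 54.3%, against 27.1% in all genes of the tables and 41.9% in all RefSeq promoters. All 5 matched CC receptor promoters, 11 of 15 CC ligand and 18 of 27 interleukin ligand promoters were that poor, against 3 of 11 CXC ligand, 2 of 5 CXC receptor and 11 of 29 interleukin receptor promoters. Across genes, the Spearman correlation of CG number with signal was 0.065 in members and 0.10 in all genes, a description across genes that share libraries and base composition. Member genes with 0 to 2 CG had a median signal of 61.8, against 14.1 for all genes with so few CG. With 3 to 5 CG, the bin with most member genes (28), the medians were 85.9 in members and 70.3 in all genes. With 6 to 10 CG the medians were 110 in members and 100.5 in all genes, and with 11 or more they were 67.7 and 53.97.

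Signal at the cytokine genes was above the middle of the genome-wide table. The median member level was 86.2, against 53.5 over all regions. In all, 76 of 123 members lay above that median, 37 above the upper quartile of 111 and 25 below the lower quartile of 20.03. Every role class spanned a wide range.

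**Figure D1:**
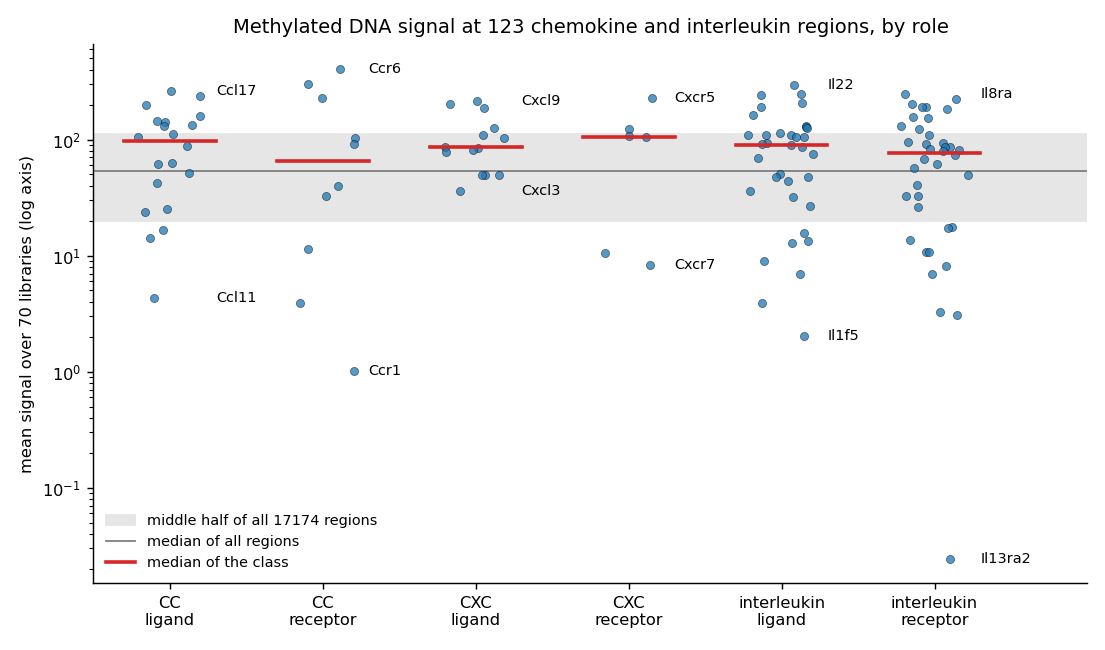
Mean deposited signal over 70 libraries (log axis) of each of the 123 member regions, 1 point per region, by role class, with the class median in red and the quartile range and median of all 17174 regions in grey. CC receptors run between Ccr1 at 1.01 and Ccr6 at 409, and the CXC ligands stay between Cxcl3 at 35.95 and Cxcl9 at 213.

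Among the 20 CC ligands the median level was 96.3, with 13 above the median of all regions. Ccl17, which draws T cells through Ccr4, was highest at 263 ± 47.9 (SD over 70 libraries), with a lowest library of 124, a median of 269 and a highest of 370, at chr19:10641702-10647327 in the files' own coordinates, whose genome build no label or header names. Ccl22, the other Ccr4 ligand, had 142 ± 25.8. The Ccr7 ligands Ccl19 and Ccl21 had 236 ± 47.1 and 132 ± 31.03. Ccl11, eotaxin, which acts on eosinophils through Ccr3, was lowest at 4.31 ± 4.10, with 8 libraries without a read and a highest library of 17.3. The eotaxin-related Ccl24 and Ccl26 stood at 111 ± 26.1 and 199 ± 36.7. The monocyte attractants Ccl2 and Ccl7 were low, at 25.3 ± 10.9 and 16.7 ± 9.91. Ccl20, the Ccr6 ligand, had 42.6 ± 12.1.

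The 10 CC receptor regions divided 5 above and 5 below the median of all regions. Ccr6 at chr1:47138700-47144325 had 191 in its lowest library, 420 at the median and 592 in the highest. Ccr10, the receptor of Ccl27 and Ccl28, followed at 304 ± 66.8 in a window shared with Plekhh3 and Cntnap1, so its reads cannot be given to 1 gene. Ccr4 had 229 ± 48 and Ccr7 104 ± 19.3. Ccr1, Ccr2 and Ccr3, receptors of monocytes and eosinophils, had 1.01 ± 1.55, 3.92 ± 3.62 and 11.5 ± 4.68. Ccr1 had no read in 38 of 70 libraries and at most 7.86, at chr8:128698088-128703713.

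All 14 CXC ligand regions lay above the lower quartile of all regions. Cxcl9, an interferon-induced ligand of Cxcr3, was highest at 213 ± 44.9 in a window that overlaps that of Art3, and its relatives Cxcl10 and Cxcl11 had 126 ± 26.3 and 86.6 ± 21.97. Cxcl16, which binds Cxcr6, had 203 ± 37.05 and shares reads with Zmynd15. The neutrophil attractants Cxcl1, Cxcl2 and Cxcl3 had 84.2 ± 17.3, 110 ± 19.4 and 35.95 ± 10.6. Cxcl12, the ligand of Cxcr4 that retains blood cells in bone marrow, has 3 transcript rows at 1 place with the same value, 49.4 ± 11.7. Of the 6 CXC receptors, Cxcr5, which B cells use to enter follicles, was highest at 228 ± 52.8. Cxcr3 and Cxcr7, a decoy receptor of Cxcl12, were lowest at 10.6 ± 6.27 and 8.27 ± 15.2.

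Interleukin ligands had a median of 89.5, with 10 of 35 above the upper quartile of all regions and 7 below the lower. Il22, which acts on hepatocytes and epithelia, was highest at 298 ± 61.2 with libraries between 145 and 426, and Il24 and Il4 followed at 249 ± 53.2 and 244 ± 48.9. Il17a had 206 ± 40.8. The inflammatory cytokines Il1a, Il1b, Il6 and Il18 stood at 74.9 ± 15.1, 47.8 ± 10.8, 36.1 ± 10.9 and 89.5 ± 18.8. Il33, released by damaged cells, had 50.1 ± 15.2, and the anti-inflammatory Il10 and Il1rn had 26.5 ± 9.61 and 13.3 ± 8.07. The lowest was Il1f5, the antagonist of the interleukin-36 branch, at 2.02 ± 3.40, with 35 libraries without a read.

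Interleukin receptors lay between Il13ra2 and Il8ra. Il8ra, the neutrophil receptor for interleukin-8 type chemokines, was highest at 247 ± 51.4, and Il10ra, Il22ra1, Il18r1 and Il10rb had 222 ± 43.3, 204 ± 38.8, 192 ± 34.3 and 191 ± 44.5. Il13ra2, a decoy for interleukin-13, on the X chromosome, had no read in 69 of 70 libraries and 1.01 in the other. In 10 of the 38 regions the level was below the lower quartile of all regions, among them Il4ra at 10.6 ± 6.01, Il13ra1 at 8.12 ± 4.59, Il12rb2 at 3.07 ± 3.25 and Il7r at 13.6 ± 8.91. Il2rg, the chain shared by receptors of several interleukins, had 25.97 ± 7.78 and shares reads with Med12. Further members that share reads with a neighbour are Il25 with Efs and Cmtm5, Il23a with Pan2, Il17rb with Chdh and Il27ra with Rln3, and the 2 Il1rap windows overlap each other. With the Cxcl12 rows this makes 13 member regions, and their values are uncertain between the genes.

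Neighbouring genes of 1 family often had quite different signal. Members lay on 19 chromosomes, and 11 clusters held at least 3 regions with gaps under 200 kb. In the receptor cluster of chromosome 8, Ccr1 at 1.01 lay between Cxcr6 at 104 and Ccr1l1 at 91.8, with Ccr9 at 39.8, Ccr3 at 11.5 and Ccr2 at 3.92. In the Ccl2 group of chromosome 10, Ccl11 had 4.31 beside Ccl12 at 62.6, with Ccl2 at 25.3, Ccl7 at 16.7 and Ccl1 at 23.8. In the Ccl5 group of the same chromosome, Ccl9 had 14.2, whereas Ccl5, Ccl3, Ccl4 and Ccl6 had 146, 132, 105 and 60.9.

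The type 2 cytokine genes Il4, Il13 and Il5 on chromosome 10 had 244, 129 and 109. On chromosome 13 Il24 had 249, Il20 110 and Il10 26.5. The interleukin-1 family cluster of chromosome 3 was low throughout: Il1f8 was its highest at 43.6, and Il1f9, Il1f6, Il1f5, Il1f10 and Il1rn had 6.90, 3.93, 2.02, 15.5 and 13.3. Its receptors on chromosome 9 ran between Il1r2, a decoy, at 32.6 and Il18r1 at 192. The remaining clusters were the Cxcl9 and Cxcl1 groups of chromosome 14, the Ccl19 and Ccl21 group of chromosome 5 with Ccl27 at 51.1 and Il11ra1 at 61.9, and the 3 Cxcl12 rows.

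**Figure D2:**
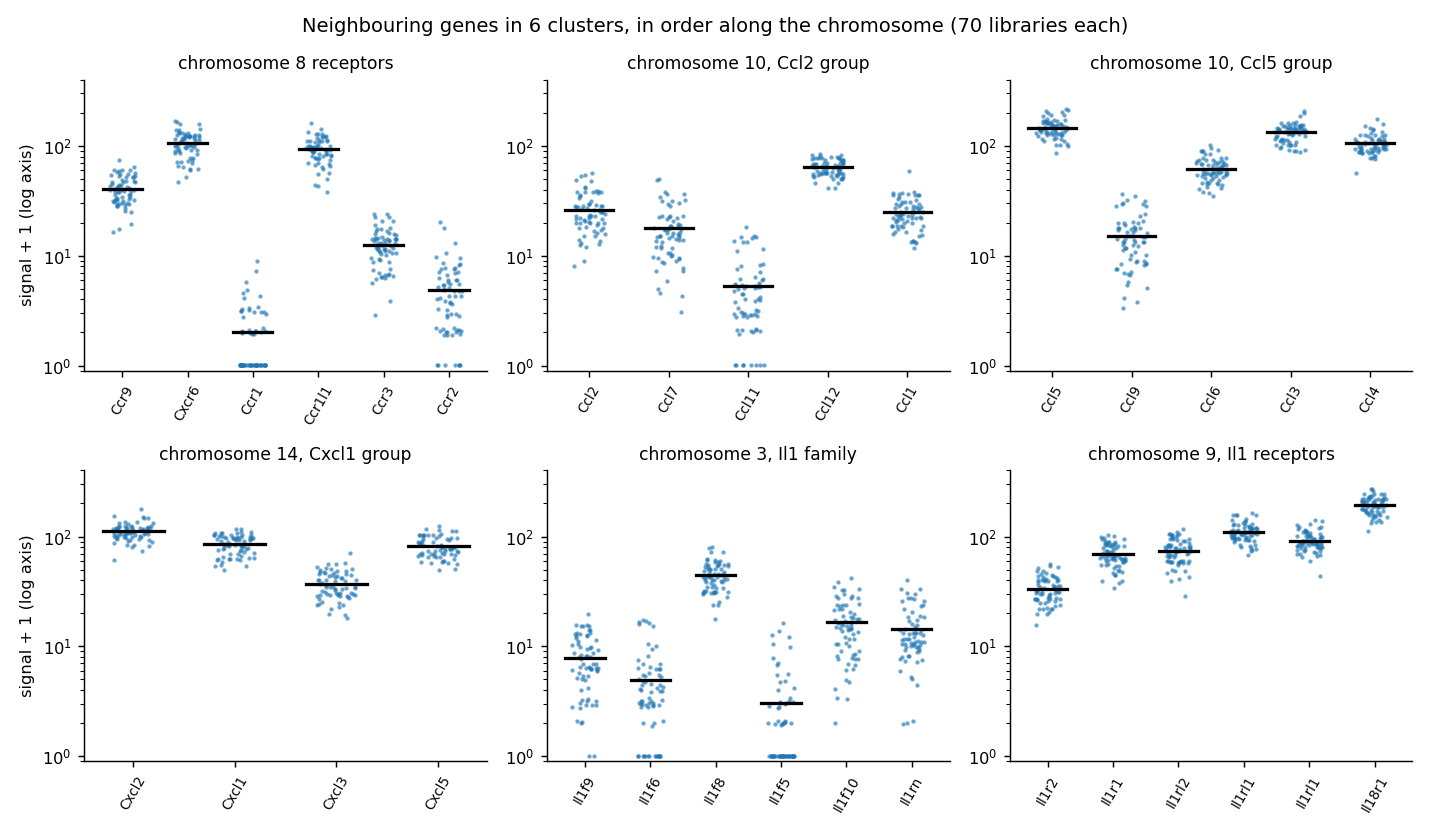
Signal + 1 (log axis) in each of 70 libraries (points) with the mean (bars), for 6 of the clusters in chromosome order. Ccr1 lies at the bottom of the axis between Cxcr6 and Ccr1l1, and Ccl9 lies below every neighbour in its cluster by mean.

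The spread between libraries differed with the level of the region. The SD within groups on the log2 scale was between 0.23 and 1.38 over the 118 members tested, with a median of 0.34, against 0.38 over all tested regions. All 25 members below the lower quartile had higher means in the 9 weakly enriched libraries, with a median of 15.9 against 8.54 in the other 61, and all 37 above the upper quartile had lower means there, with a median of 139 against 197. Over all regions the shares were 94.9% and 99.8%. Because these 9 libraries were defined by having few regions without a read, higher values of low regions in them follow in part from that definition. For low regions named by their small p, such as Il4ra, Ccl9 and Cxcr7, the difference is also given without these libraries.

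No treatment contrast called a member region. At each time 7 contrasts were tested with limma on log2(signal + 1), in 1 fit over 35 libraries, with Benjamini-Hochberg adjustment over all regions tested and a threshold of 0.05. At terminal euthanasia 116 members were tested and at partial hepatectomy 115, the rest being too low. The call rate over all regions was 0% in each of the 14 contrasts. Member medians in these contrasts lay between -0.04 and 0.11, and those of all regions between -0.03 and 0.11. All differences are log2 differences of (signal + 1), which understate changes of low regions. The median SE of a member's difference was 0.22 at terminal euthanasia and 0.20 at partial hepatectomy, with ranges of 0.19 to 0.79 and 0.16 to 0.80. Members with an unadjusted p under 0.05 are counted next beside the share of all regions that reached it, and the 2 with the smallest p are named as values and not as changes. The 5 compound groups of a time share 1 promoted control, so its libraries enter each of their contrasts and the phenobarbital contrast. Replicate 5 of each compound group had a higher median signal over all regions than any library outside that set at its time. Its scaling is described with the processing below.

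The DEN 30 mg/kg group at partial hepatectomy had the smallest member p-value of any contrast. Il4ra had 14.8, 21.02, 24.9, 21.1 and 20.5 in the DEN 30 mg/kg libraries, against 5.27, 3.33, 6.36, 2.18 and 7.52 in the promoted control. All DEN libraries lay above all control libraries, 20.5 ± 3.63 against 4.93 ± 2.18 (SD, n = 5 each). The difference was 1.93 (SE 0.48, 95% interval 0.96 to 2.89), rank 9 among all regions, with a limma adjusted p of 0.27. Without the weakly enriched libraries, which include 2 of the 5 DEN libraries, it was 1.81 with an adjusted p of 0.59. Over 80 settings, the main fit among them, it lay between 1.03 and 2.08 with adjusted p between 0.12 and 0.59. The settings that leave out a terminal euthanasia library cannot change this contrast and repeat the main fit.

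Il1rapl2, an X-linked gene of the interleukin-1 receptor family that acts at neuronal synapses, had 16.9, 13.7, 26.9, 27.1 and 13.3 in the DEN 30 mg/kg libraries, against 6.32, 11.1, 5.30, 2.18 and 3.76 in the promoted control. The groups did not overlap, and the 2 highest DEN values, 26.9 and 27.1, are the weakly enriched ones. The difference was 1.69 (SE 0.51, 95% interval 0.67 to 2.71, limma adjusted p 0.43), and 1.35 without those libraries, with an adjusted p of 0.88. Over the 80 settings, with the same repeats, the adjusted p lay between 0.18 and 0.93. In this contrast 9 of 115 members had an unadjusted p under 0.05, 5 higher and 4 lower, or 7.83% against a background of 7.64%. Il12a, a subunit of interleukin-12, was among the lower ones, with 32.7 ± 16.7 in the DEN 30 mg/kg group and 59.1 ± 17.4 in the promoted control. Il4ra and Il1rapl2 were the members whose groups did not overlap, against 1.2% of all regions. The median difference was -0.02 in members and 0.04 in all regions.

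**Figure D3:**
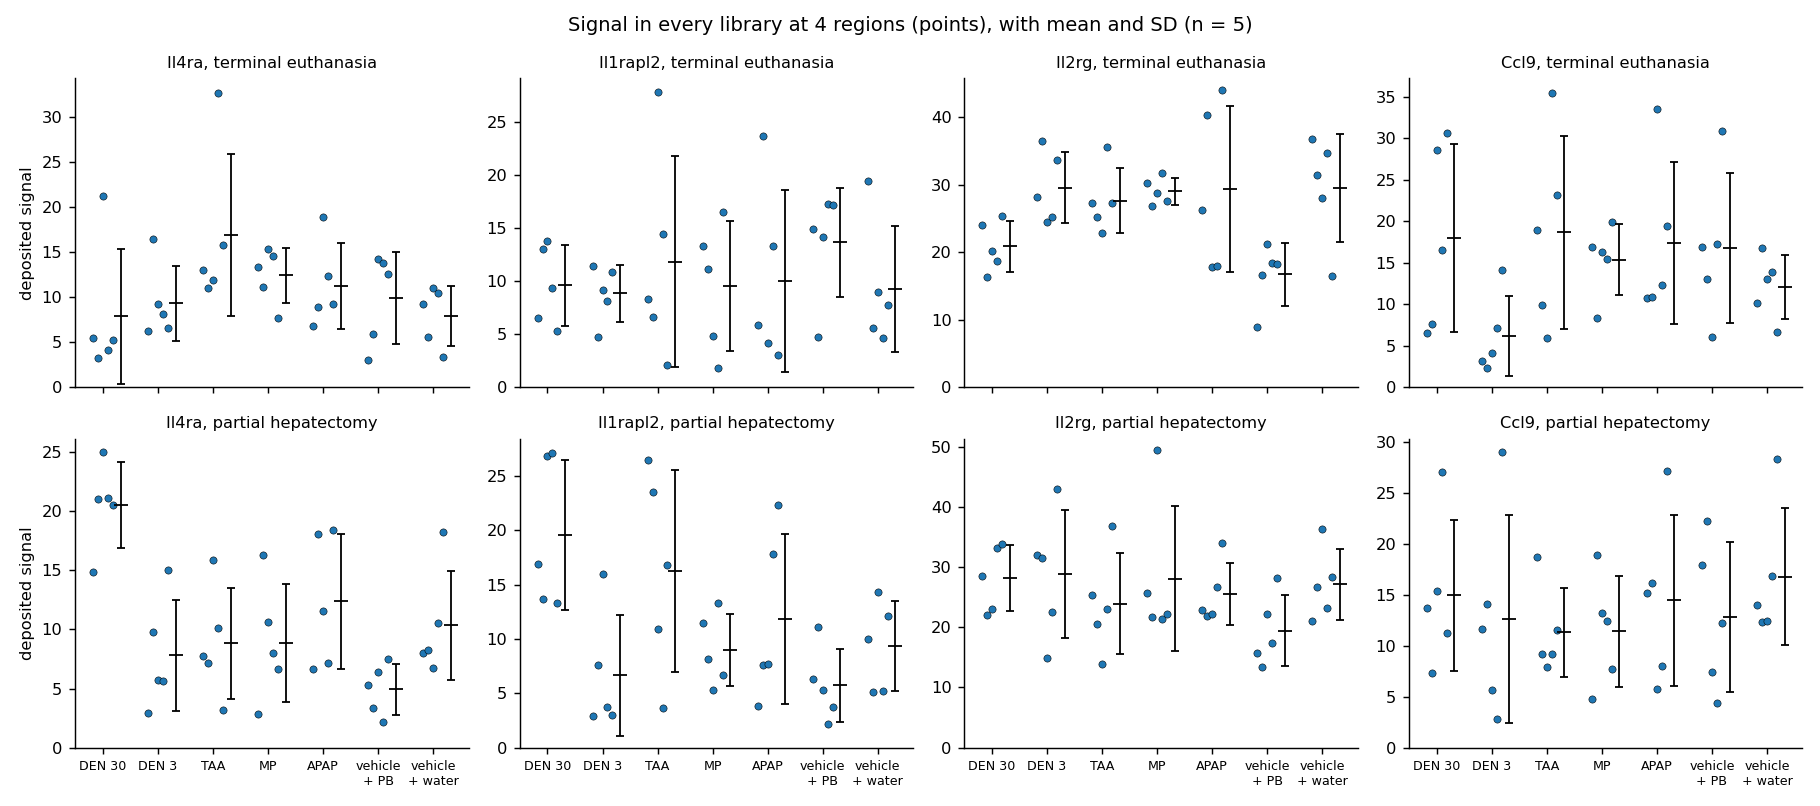
Deposited signal of Il4ra, Il1rapl2, Il2rg and Ccl9 in every library (points) with mean and SD (bars, n = 5), at terminal euthanasia (top) and partial hepatectomy (bottom). DEN is diethylnitrosamine in mg/kg, TAA thioacetamide, MP methapyrilene, APAP acetaminophen and PB phenobarbital; the 5 Il4ra values on DEN 30 at partial hepatectomy lie between 14.8 and 24.9, above all 5 of the vehicle + PB group.

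At terminal euthanasia the same contrast had other values. Il4ra had 5.46, 3.26, 21.2, 4.14 and 5.29 on DEN 30 mg/kg, against 2.97, 5.94, 14.2, 13.8 and 12.6 in the promoted control, a difference of -0.42 (SE 0.49). The high DEN value, 21.2, is a weakly enriched library. The members with the smallest p were Cxcr7 and Il1r2. Cxcr7 had 0.01 (no read), 1.09, 14.8, 5.18 and 7.41 on DEN 30 mg/kg, against 4.96, 13.1, 6.08, 8.07 and 124 in the promoted control, whose highest library is weakly enriched. The difference was -1.72 (SE 0.79, limma adjusted p 1.0), and without the weakly enriched libraries it was -1.41. Il1r2 averaged 24.8 ± 3.90 on DEN 30 mg/kg and 39.6 ± 10.7 in the promoted control, a difference of -0.63 (SE 0.30). Here 3 of 116 members reached an unadjusted p under 0.05, 1 higher and 2 lower, against 3.41% of all regions, and no member's groups stood apart, against 0.375% of all regions.

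With DEN at 3 mg/kg, terminal euthanasia gave the highest share of regions with a small p. Of 116 members 7 had an unadjusted p under 0.05, 5 higher and 2 lower, or 6.03% against 8.51% of all regions. Ccl9, a rodent CC chemokine that binds Ccr1, had 3.12, 2.35, 4.09, 7.19 and 14.1 on DEN 3 mg/kg, against 16.9, 13.1, 6.08, 17.3 and 30.9 in the promoted control. These groups overlapped, and the difference was -1.38 (SE 0.48, 95% interval -2.33 to -0.43, limma adjusted p 0.58), and -1.13 without the weakly enriched libraries, with an adjusted p of 0.94. Il2rg had 28.1, 36.5, 24.5, 25.2 and 33.7 on DEN 3 mg/kg, against 8.92, 16.6, 21.3, 18.4 and 18.3 in the promoted control, with no overlap and a difference of 0.82 (SE 0.30, limma adjusted p 0.58). Il12b, the second subunit of interleukin-12 and interleukin-23, also did not overlap and was higher, against a background of 1.17%.

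At partial hepatectomy DEN at 3 mg/kg had 2 members with an unadjusted p under 0.05, both lower, against 3.17% of all regions. Il17c, an epithelial member of the interleukin-17 family, had 87.3, 80.4, 88.0, 69.7 and 98.0 on DEN 3 mg/kg, against 155, 114, 128, 117 and 115 in the promoted control. All DEN libraries lay below all control libraries, against 0.677% of regions whose groups did not overlap. The difference was -0.57 (SE 0.21, 95% interval -0.98 to -0.15), with a limma adjusted p of 1.0. Il12a averaged 39.2 ± 13.96 on DEN 3 mg/kg and 59.1 ± 17.4 in the promoted control, a difference of -0.61 (SE 0.28).

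The 2 DEN doses were also set against each other. At terminal euthanasia Ccl9 had 6.55, 7.60, 28.6, 16.6 and 30.7 on DEN 30 mg/kg, against the DEN 3 mg/kg values given above, a difference of 1.39 (SE 0.48, limma adjusted p 1.0), or 1.17 without the weakly enriched libraries. Il7r, the interleukin-7 receptor chain of lymphocytes, averaged 20.8 ± 9.11 on DEN 30 mg/kg and 7.34 ± 2.86 on DEN 3 mg/kg, a difference of 1.35 (SE 0.55), or 1.17 without them. In all, 3 members had an unadjusted p under 0.05, all higher at the high dose, against 3.01% of all regions, and no member's groups stood apart, against 0.275%. At partial hepatectomy Il1rapl2 and Il4ra averaged 19.6 ± 6.90 and 20.5 ± 3.63 on DEN 30 mg/kg, against 6.65 ± 5.56 and 7.81 ± 4.71 on DEN 3 mg/kg, with differences of 1.62 (SE 0.51) and 1.43 (SE 0.48). Without the weakly enriched libraries these were 1.28 for Il1rapl2 and 1.32 for Il4ra. There 4 members had an unadjusted p under 0.05, 3 higher and 1 lower, against 5.22% of all regions. Il1f9, an interleukin-36 cytokine, was the member whose groups did not overlap, against 0.614%.

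Thioacetamide gave no member call at either time. At terminal euthanasia 2 members had an unadjusted p under 0.05, against 2.06% of all regions. Il2rg averaged 27.6 ± 4.78 on thioacetamide and 16.7 ± 4.67 in the promoted control without overlap, against 0.269% of all regions, a difference of 0.73 (SE 0.30, limma adjusted p 1.0). At partial hepatectomy 5 members had an unadjusted p under 0.05, all higher, against 4.44% of all regions. Il1rapl2 averaged 16.3 ± 9.28 on thioacetamide and 5.73 ± 3.39 in the promoted control, a difference of 1.26 (SE 0.51). Neither group holds a weakly enriched library, so leaving those libraries out could not change this difference. Il20, an interleukin-10 relative of the skin, averaged 116 ± 24.9 on thioacetamide and 87.3 ± 9.64 in the promoted control, a difference of 0.39 (SE 0.17). Il9r was the member whose groups did not overlap, against 0.943% of all regions.

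On methapyrilene at terminal euthanasia Il20rb, a chain of the receptor for Il20 and Il24, had 95.3, 96.5, 108, 114 and 103, against 63.4, 79.6, 69.9, 76.1 and 66.4 in the promoted control. All methapyrilene libraries lay above all control libraries, with a difference of 0.54 (SE 0.21, 95% interval 0.11 to 0.96, limma adjusted p 1.0). Il2rg also stood apart, 29.04 ± 1.97 on methapyrilene and 16.7 ± 4.67 in the promoted control, a difference of 0.81 (SE 0.30). These were 2 members without overlap against 0.494% of all regions, and 4 members, 3 higher and 1 lower, had an unadjusted p under 0.05 against 2.57%. At partial hepatectomy Il20 had 121, 116, 117, 119 and 140 on methapyrilene, against 83.2, 88.9, 73.1, 98.2 and 93.1 in the promoted control, again with no overlap. The difference was 0.49 (SE 0.17, 95% interval 0.15 to 0.82, limma adjusted p 1.0), with 0.886% of all regions free of overlap. Ccl24 averaged 86.0 ± 18.4 on methapyrilene and 117 ± 31.8 in the promoted control. The unadjusted p was under 0.05 in 2 members, 1 higher and 1 lower, against 3.67% of all regions.

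On acetaminophen at terminal euthanasia 3 members had an unadjusted p under 0.05, all higher, against 2.76% of all regions, and none had groups apart, against 0.381%. Il2rg had 26.3, 40.4, 17.9, 18.01 and 44 on acetaminophen, beside the promoted control values given above. Il18 averaged 109 ± 22.3 on acetaminophen and 77.9 ± 16.1 in the promoted control, a difference of 0.48 (SE 0.22, limma adjusted p 1.0). At partial hepatectomy 5 members had an unadjusted p under 0.05, 3 higher and 2 lower, against 3.68%. Il12a averaged 34.2 ± 11.2 on acetaminophen and 59.1 ± 17.4 in the promoted control, a difference of -0.77 (SE 0.28). Il17c averaged 86.5 ± 19.2 on acetaminophen and 126 ± 17.2 in the promoted control without overlap, a difference of -0.55 (SE 0.21), and Il20 was without overlap and higher, 2 members against 0.576% of all regions.

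Phenobarbital itself was tested in the promoted control against the water control. At terminal euthanasia Cxcl1, a neutrophil attractant, had 79.3, 97.5, 62.8, 91.1 and 106 with phenobarbital, against 62.3, 61.8, 57.1, 61.3 and 60.5 with water. All values with phenobarbital lay above all values with water, a difference of 0.50 (SE 0.19, 95% interval 0.12 to 0.88, limma adjusted p 1.0). Ccl1 was the other member without overlap, against 0.6% of all regions. Il2rg had 8.92, 16.6, 21.3, 18.4 and 18.3 with phenobarbital, against 36.8, 31.4, 28.04, 34.7 and 16.5 with water, a difference of -0.78 (SE 0.30). The unadjusted p was under 0.05 in 4 members, 2 in each direction, against 3.17% of all regions.

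At partial hepatectomy Ccl27, a skin chemokine, averaged 34.5 ± 6.58 with phenobarbital and 57.7 ± 14.01 with water, a difference of -0.71 (SE 0.28, limma adjusted p 0.73). Il20rb had 124, 97.8, 88.0, 121 and 49.8 with phenobarbital, against 36.99, 124, 41.1, 57.8 and 59.7 with water, overlapping through 1 library on each side. Its difference was 0.65 (SE 0.24, limma adjusted p 0.73). Of 115 members 6 had an unadjusted p under 0.05, 4 higher and 2 lower, against 6.28% of all regions. One window of Il1rl1, the receptor of Il33, was lower without overlap, against 0.98%.

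**Figure D4:**
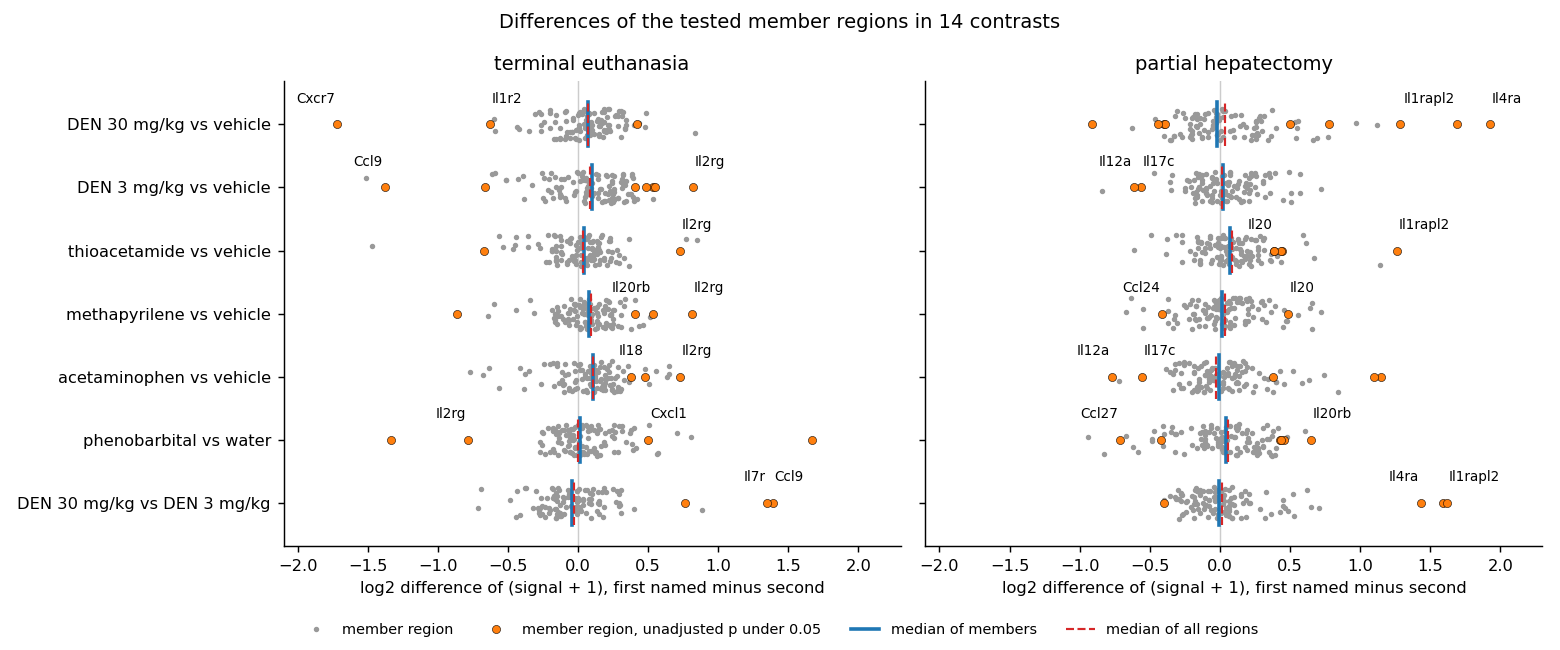
Log2 difference of (signal + 1) for each tested member region (points) in 14 contrasts, first-named group minus the second, at terminal euthanasia (left) and partial hepatectomy (right), with medians of members (blue) and of all regions (red dashes). Orange marks an unadjusted limma p under 0.05, the 2 smallest per row are named except 1 on thioacetamide at terminal euthanasia, vehicle stands for the promoted control, and no point passed the adjusted threshold; both medians lie near 0 in every row.

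Any difference among the 7 conditions was tested with 1 F test per region. At terminal euthanasia 0 of 116 members were called, with 0% of all regions, and 3 members had an unadjusted p under 0.05, against 2.55%. The smallest p-values belonged to Cxcl1 (F 2.67) and Il20rb (F 2.49), with limma adjusted p of 1.0 each. At partial hepatectomy 0 of 115 members were called, with 0.00633% of all regions, and 6 members had an unadjusted p under 0.05, against 4.16%. Il4ra (F 3.12) and Il1rapl2 (F 2.80) came first there, each with a limma adjusted p of 0.99, and had F of 2.05 and 1.95 without the weakly enriched libraries.

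Whether a contrast differed between the times was tested as an interaction over all 70 libraries, a test added after the values were seen. No region was called in any of the 7 interactions, 0% of 16385 regions and 0 of 118 members. For DEN 30 mg/kg against the promoted control, Il4ra had the smallest member p, with its difference at terminal euthanasia 2.35 below that at partial hepatectomy (-2.35, SE 0.65, limma adjusted p 0.73), and 10 members had an unadjusted p under 0.05 among 1098 regions in all. For phenobarbital against water it was Ccl27, at 1.10 (SE 0.37, limma adjusted p 0.72).

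Of 20 cytokine and receptor genes with known parts in liver inflammation, 19 were tested, Ccr2 being too low. They gave 266 differences between -0.68 and 0.88 over the 14 contrasts, and none was called. An unadjusted p under 0.05 was found in 7, or 2.63%, against 4.25% of all regions over the same contrasts, where single contrasts ran between 2.06 and 8.51%. Il6, which starts the acute phase response of hepatocytes, had group means between 28.3 and 42.5 and differences between -0.49 and 0.40. Il1b had group means between 41.6 and 56.4, and Il10 between 23.5 and 31.3. Cxcl10 had group means between 105 and 150, and its largest difference, 0.54, was in DEN 3 mg/kg against the promoted control at terminal euthanasia. Ccl5 had group means between 121 and 166 and Ccl2 between 17.99 and 32.9. Cxcr4 and Il22 had differences between -0.27 and 0.26 and between -0.22 and 0.27, none with an unadjusted p under 0.05.

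Between the times the members had differences close to those of the whole table. Terminal euthanasia minus partial hepatectomy over the 7 conditions was positive in 86 of 118 members, 72.9%, against 70.4% of all regions, with medians of 0.044 in members and 0.045 in all regions. That direction depended on scaling: the members' median was -0.00 after quantile normalization and 57 were then positive. No member was called, against 0.0671% of all regions. An unadjusted p under 0.05 was found in 13 members, all higher at terminal euthanasia, against 6.59% of all regions, or 6.01% counting those higher alone. After quantile normalization 12 members had such a p, 8 higher and 4 lower, or 10.2%, against 6.76% of all regions. Il1rap, which pairs with receptors of interleukin-1, interleukin-33 and interleukin-36, had the smallest p. Its values at terminal euthanasia had a lowest library of 66.2, a median of 88.0 and a highest of 136, against 44.6, 80.9 and 118 at partial hepatectomy. The difference was 0.22 (SE 0.07, 95% interval 0.07 to 0.37, limma adjusted p 0.43), positive in 7 of 7 conditions. It lay between 0.18 and 0.24 over 80 settings, the main fit among them, and was 0.22 also in the second, overlapping Il1rap window. Ccl4, named after its values were seen, averaged 112 ± 23.4 at terminal euthanasia and 96.7 ± 13.5 at partial hepatectomy (SD, n = 35 each), a difference of 0.20 (SE 0.07, limma adjusted p 0.44).

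Each condition has libraries numbered 1 to 5 at both times, and a fit with that number within condition asked which regions kept a value of their own. It called 1.40% of all regions and 0 of 118 members, and 13 members had an unadjusted p under 0.05, against 14.9% of all regions. Ccl21 had the largest F among members, 2.34 with a limma adjusted p of 0.092, and in 22 of 35 pairs both libraries lay on the same side of their group means. Its highest and lowest library values were 213 and 68.7. In the promoted control number 1 had 177 at terminal euthanasia and 213 at partial hepatectomy, and in the methapyrilene group number 2 had 82.6 and 93.0. Il34, a ligand of the Csf1 receptor on macrophages, had an F of 2.26 (adjusted p 0.11) with 23 of 35 pairs on the same side, and Il17c 2.16 (adjusted p 0.14) with 24. Ccl27, Il7r and Cxcr6 followed with F of 1.88, 1.88 and 1.85, limma adjusted p of 0.24, 0.24 and 0.25, and 18, 18 and 22 such pairs. In every condition same-numbered libraries lie in the same block of library numbers at both times, so differences between blocks enter this term throughout. Number 5 is the only library of its block in each group, controls included. There, number and block cannot be told apart. Number 5 of every compound group lies in the last block at both times, and no control library does. Log2 deviations of Il34 in number 5, terminal euthanasia first, were 0.49 and 0.50 on DEN 30 mg/kg. They were 0.34 and 0.20 on DEN 3 mg/kg, 0.41 and 0.14 on thioacetamide, and 0.47 and 0.16 on methapyrilene. On acetaminophen they were 0.24 and -0.04. In these number 5 libraries the median signal over all regions was also above that of every other library of the time. How much of the Il34 deviations goes with that shift was not tested. Without the weakly enriched libraries Ccl21 passed the threshold (F 2.74, adjusted p 0.042), with 1.86% of all regions called. The member count also depended on single pairs: it was 3 of 118 without number 5 of the acetaminophen group (Ccl21, Il34 and Il17c), or 2.54%, against 2.77% of all regions. Without number 3 of that group it was 1, against 2.39% of all regions.

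**Figure D5:**
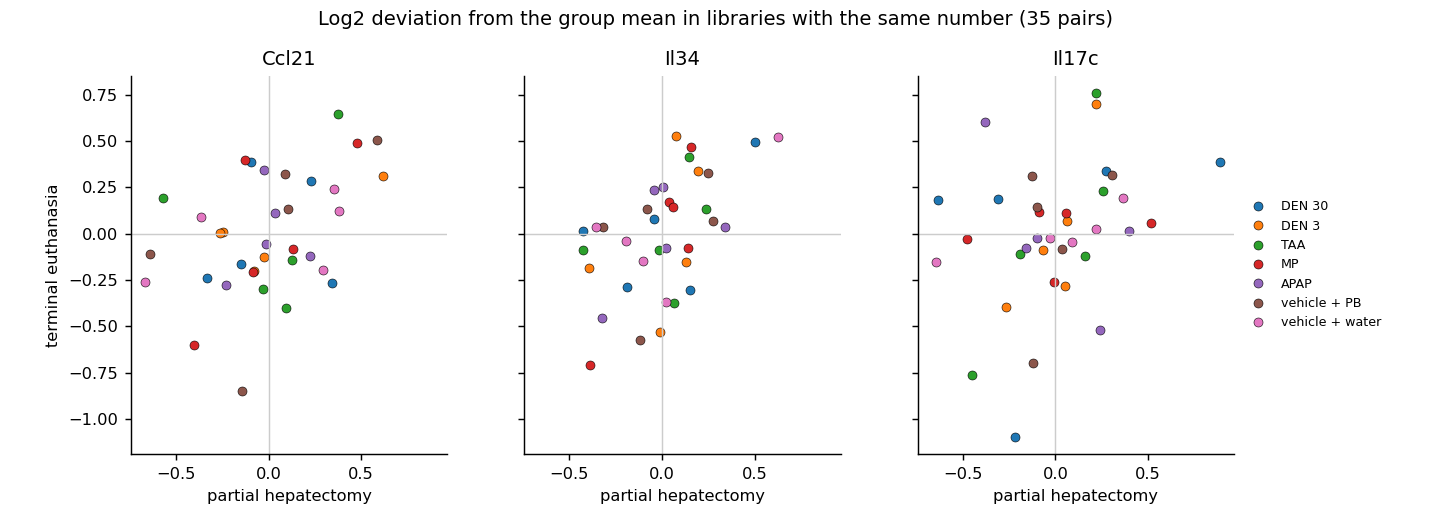
Log2 deviation from the group mean at terminal euthanasia (vertical) against partial hepatectomy (horizontal) for libraries of the same condition and number, 35 points per gene, coloured by condition. For Ccl21, Il34 and Il17c, 22, 23 and 24 points lie in the lower left or upper right part; TAA is thioacetamide, MP methapyrilene, APAP acetaminophen and PB phenobarbital.

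The authors' deposited peak list compares DEN 30 mg/kg with phenobarbital at times named 5w and 11w, taken here for the hepatectomy and the euthanasia samples. It holds 42 peaks annotated to 27 member genes, and 92 member genes have none. At 5w 21 member genes are among 6407 genes with a peak, and at 11w 11 are among 2142. The region tables hold 119 member genes among 16561 gene symbols. By place, 29 are intronic, 6 upstream and 5 in a coding exon with intron. Interleukin receptors have 24 of the 42 peaks and 38 of the 123 member regions, and gene length was not taken into account. At 5w all 31 member peaks are called hypermethylated, as are 95.4% of all 29791 peaks of that time, and at 11w 3 are called hyper- and 8 hypomethylated, with 32.3% hypermethylated among all 6440 peaks. The list names no libraries, and its treatment count is the larger in both directions, so in a hypomethylated peak it is read here as the count of the phenobarbital control. Counts were small, between 15 and 50 on the larger side. Il1rap had 5 peaks, all within the gene and 29774 to 119951 bp from the start, Il16, a T cell attractant, 4, and Il7, a lymphocyte growth factor, 3. Ccr6, Il10rb, Il17rd, Il1r2, Il1rl2 and Il22ra1 had 2 each. Those with 1 were Ccl2, Ccl7, Ccl19, Cxcl11, Cxcl13, Il2, Il15, Il17b, Il21 and, among receptors, Il1r1, Il1rapl1, Il5ra, Il12rb2, Il17ra, Il17rb, Il18r1, Il20ra and Il22ra2.

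Peaks that fall inside a member window can be set beside the 5 against 5 libraries of that window. The authors' deposited table gives Ccl2 the largest counts, 50 against 5 in a peak at -1530 bp from the start, at 5w. The whole window had 19.05, 36.8, 30.7, 41.1 and 36.96 on DEN 30 mg/kg, against 18.96, 34.4, 26.5, 14.2 and 18.8 in the promoted control, a difference of 0.54 (SE 0.36, limma adjusted p 0.72). For Ccr6 the authors' deposited table gives 31 against 2 reads in a peak 204 bp from the start, called hypermethylated, and the window averaged 377 ± 97.5 on DEN 30 mg/kg and 456 ± 66.3 in the promoted control, a difference of -0.30 (SE 0.22). For Il7 the authors' deposited table gives 17 against 1, and the window had 12.7, 13.7, 28.8, 35.1 and 6.16 on DEN 30 mg/kg, against 8.43, 6.67, 14.8, 1.09 and 6.58 in the promoted control, a difference of 1.28 (SE 0.53, limma adjusted p 0.60). The 2 highest Il7 values, 28.8 and 35.1, are the weakly enriched libraries. Peaks of Ccl7, Il15 and Il17b at 5w went with window differences of 0.16, 0.29 and 0.15. At 11w the Cxcl13 peak, called hypermethylated, went with -0.04, and the hypomethylated peaks of Cxcl11, Il17rb and Il2 with 0.43, 0.31 and -0.03, none past the threshold. Windows are 5625 bp wide and member peaks at most 329 bp, so most reads of a window lie outside its peak.

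The authors' deposited table also holds an unadjusted p per region for each group against the promoted control. Under 0.05 at terminal euthanasia were 0 members for DEN 30 mg/kg against a background of 2.38%, 5 for DEN 3 mg/kg against 4.31%, 3 for thioacetamide against 2.32%, 6 for methapyrilene against 4.08%, 3 for acetaminophen against 2.96% and 5 for the water control against 2.11%, of 122 members each. At partial hepatectomy the authors' deposited p was under 0.05 in 9 members for DEN 30 mg/kg against 5.23%, 3 for DEN 3 mg/kg against 3.3%, 6 for thioacetamide against 4.3%, 5 for methapyrilene against 3.92%, 9 for acetaminophen against 2.95% and 5 for the water control against 3.8%. For Il4ra in DEN 30 mg/kg at partial hepatectomy it was 0.00011, and for Il20rb in methapyrilene at terminal euthanasia 0.00083 in the authors' deposited table.

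Other genes of cytokine signalling were counted beside the members. Of 52 listed genes outside the naming rule, such as Tnf, Ifng, Csf1r, the JAK and STAT genes and the NF-kappa B genes, 43 were found in 44 regions with a median level of 91.4, between Irak1 at 3.15 and Irak4 at 451. None was called in any of the 18 comparisons. Csf2rb, the shared chain of the receptors for Il3, Il5 and Csf2, had the smallest p among the treatment contrasts, at -0.56 (SE 0.19, limma adjusted p 0.54) for DEN 30 mg/kg against the promoted control at partial hepatectomy. Jak2, a kinase of many cytokine receptors, had 0.57 (SE 0.21, limma adjusted p 0.58) for DEN 3 mg/kg at terminal euthanasia. Regions of 5 hepatocyte marker genes had a median of 75.7 and 13 regions of 9 leukocyte marker genes 60.8. None of these was called either, and as methylated DNA they do not count cells.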

How the data were processed

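Liver DNA was enriched for methylated fragments and sequenced on SOLiD 4, per the labels' protocols. Aligner, genome build and scaling: not given in the sources used here. The authors deposited 1 signal per region and library. From the values, each is a whole number of reads times 1 step per library, 50 M divided by that library's scaling total, and a region without a read is written 0.01. Scaling totals of the last block of library numbers repeat those of the first. That block is replicate 5 of each compound group at both times and holds no control library. Whether the repeated totals are those libraries' own is not stated. Their median signal over all regions was 64.0 to 70.6 at terminal euthanasia and 56.0 to 63.2 at partial hepatectomy. Other libraries reached at most 56.6 and 54.3 at these times. Replicate 5 values enter the compound contrasts and the time comparison as deposited, so these may be shifted upward. The same tables hold p-values of the authors' t-tests, per the file headers. The deposited peak list gives whole-number counts for both sides of each peak, a read density signal, an enrichment ratio and an other measure, the distance to a transcript start. Neither its caller nor any pooling of libraries is stated.

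Signals were analysed as log2(signal + 1) with limma 3.58.1 (variance trend) in R 4.3.3, with 1 mean per group and Benjamini-Hochberg adjustment over all regions tested. Regions needed a signal of at least 10 in at least 5 libraries. Empty rows of the first table, 16623 in number, were left out. With 5 libraries a group and roughly 1 read per unit of signal, low regions rest on a handful of reads. Named are the 2 members with the smallest p per comparison, the 6 largest F values for library number, the highest and lowest of each role class, 20 fixed genes, overlapping members and members with a peak. One member is counted in the totals and not reported by name here. Members, lists and tests were chosen with earlier results of these data known. CG was counted in 300-base promoters of RefSeq (GRCr8), matched by symbol or transcript, and no sequence was read by the files' coordinates. The scripts were tested on simulated data. Alternatives were another pseudocount, other filters and scalings, other covariates and samples, and leaving out each library.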

Additional observations from a re-analysis of the deposited data

Results flagged for a closer look

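Groups of 5 libraries were examined for 1 library far from the other 4 in 45 combinations of a named member and a group, and 3 were found. Chance alone gives about 1 in 20. Il20 in methapyrilene replicate 5 at partial hepatectomy had 140 (140.018), against 116 to 121 in the other 4 libraries. Cxcr7 in the promoted control replicate 5 at terminal euthanasia had 124 (123.586), against 4.96 to 13.1 in the other 4, and this library is 1 of the 9 weakly enriched ones. Il20rb in the water control replicate 2 at partial hepatectomy had 124 (124.237), against 36.99 to 59.7 in the other 4. Each of these 3 libraries belongs to a contrast described above, and their part in the differences was not tested beyond leaving them out.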

How the results depend on the processing

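Limits: levels near 0 rest on few reads, windows average over 5625 bp, and some windows share reads with a neighbour. In the 17 comparisons other than that of library number, the count of called members stayed 0 under every alternative run. edgeR and DESeq2, planned on recovered reads, were not run, although the values can be read as whole reads with 0 written as 0.01, and the calls rest on limma alone. Of 369 values of 40 named results under alternatives, 368 kept their direction and side of the threshold, 1 was newly past it and 0 reversed. Of 2590 values with a library left out, 4 were newly past it and 0 reversed. A contrast within 1 time cannot change when a library of the other time is left out. Many of the 2590 values therefore repeat the main result and say nothing on stability.
Leaving out libraries 1 at a time gave 0 called members in those 17 comparisons. For the library number term the members called were 1 without the weakly enriched libraries and 0 to 3 with 1 pair left out.

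Counts over all regions were small and moved with the setting. For DEN 30 mg/kg against the promoted control at partial hepatectomy 0 became 5 with a pseudocount of 10, 3 with the groups alone, 3 with library number blocks as a covariate, and 1 with the replicate block, the stricter filter, scaling to a common total or without the last block of library numbers. At terminal euthanasia it became 2 with library number blocks. A count of 1 in place of 0 was found for methapyrilene at partial hepatectomy (groups alone), DEN 3 mg/kg at terminal euthanasia (groups alone, without the last block), the doses of DEN at partial hepatectomy (without the last block) and any difference at terminal euthanasia (quantile normalization, common total). Any difference at partial hepatectomy, 1 region, became 2 with a pseudocount of 10, the stricter filter, quantile normalization or a common total, and 0 without a filter, with library number blocks or without the last block. The time comparison, 11 regions, had 25 with quantile normalization, 23 without the weakly enriched libraries and 17 with a common total. The library number term, 230 regions, had 102 without a filter, 152 with quantile normalization and 112 with library number blocks.

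With 1 library left out the counts lay between 0 and 4 for DEN 30 mg/kg and for any difference at partial hepatectomy, 0 and 2 for DEN 30 mg/kg at terminal euthanasia, 0 and 1 or 0 in the other contrasts, 11 and 14 for time and 147 and 452 for library number. The cause was not tested for any of these. The 2 settings on the last block and the common total were chosen after seeing the data.

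Same-numbered libraries of the 2 times deviated together weakly from their group means: r was positive in 30 of 35 pairs with a median of 0.0803, against 60 of 140 pairs of unlike number with a median of -0.0119. Deviations from a group mean cancel out within the group, so the pairs of unlike number are not an independent baseline. Some of those pairs joined weakly enriched libraries and had high r. Number 4 at partial hepatectomy with number 3 at terminal euthanasia had 0.656 on DEN 30 mg/kg. On acetaminophen, number 5 with number 3 had 0.730. The highest r of a same-numbered pair, 0.675 for number 3 on DEN 30 mg/kg, joined weakly enriched libraries as well. Only 11 of the 35 same-numbered pairs were over 0.1, a cut that no test set, and the labels do not state a pairing. The numbers were therefore not taken to pair the samples, and whether they do was not settled. With the replicate block no member was called in any comparison.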
